A study of Mus musculus with 9 samples.

Results

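The DNA replication machinery was described here as 54 genes with roles at the replication fork, chosen by name with earlier results of these data known. Their roles were origin licensing (12 genes), helicase activation (8), polymerases and primase (9), and the sliding clamp with its loader and the single-strand binding proteins (10). The others were Okazaki fragment joining (2), nucleotide supply and uracil removal (6), fork protection (3) and replication-coupled chromatin (4). All 54 were found among the 53280 genes of the count table, and all 54 were among the 21150 genes that had enough counts to be tested. The samples were neural retinas of mouse pups at postnatal day 4 (P4), raised in standard lighting of about 300 lux. They carried either no functional copy of Opn4 (Opn4KO, 5 pools) or 2 wildtype copies (Opn4WT, 4 pools); Opn4 encodes melanopsin, the photopigment of intrinsically photosensitive retinal ganglion cells. Both genotypes came as littermates from matings of Opn4 heterozygotes, and each pool joined 4 retinas from 2 animals of 1 genotype, taken 6 to 7 h after lights on. The alleles were inherited, so the knockout is not limited to 1 cell type. The labels do not give the strain, the sex of the pups or the litter behind each pool.

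A cell copies its DNA once per division. Origins are first licensed in G1 by the origin recognition complex, Cdc6 and Cdt1, which load the ring-shaped MCM2-7 helicase onto DNA; in S phase kinases and further factors turn each ring into an active helicase, and polymerases then copy both strands behind it with the clamp PCNA. Most of these genes are transcribed mainly around the entry into S phase, under E2F transcription factors, so that their transcripts are abundant in dividing cells and scarce in cells that have left the cell cycle. In the mouse retina of the first postnatal week the dividing cells are the late progenitors, which give rise mostly to rods, bipolar cells and Müller glia.

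Libraries held 65.5 to 86.1 M counts (M, mega), with no detectable difference in totals between genotypes (exact permutation test over pools, two-sided p = 0.341). Opn4 itself was at 1.36 ± 0.29 CPM (counts scaled to the library total; SD, n = 5) in knockout and 11.7 ± 0.28 CPM (SD, n = 4) in wildtype, and the 5 knockout pools all lay below the 4 wildtype pools (exact permutation p = 0.00794, the smallest that the 126 splits of 9 pools can give). Markers of neural retina were abundant in both genotypes, for example Pax6 at 593 ± 14.4 CPM in knockout and 663 ± 8.30 CPM in wildtype. Knockout pools 1 and 2 stood apart by lens transcripts: Cryaa, the main lens crystallin, was at 4.65 and 3.28 CPM there and at 0.0812 to 0.737 CPM in the other 7 pools. Counts of genes called by edgeR are therefore also given without these 2. In such bulk tissue, fewer cells of a type and less RNA per cell cannot be told apart.

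Transcripts of most genes on this list were lower in the Opn4 knockout retina. The list was drawn up with earlier results of the same libraries known, so its counts are no independent evidence of a direction. Of 32 further replication genes kept on another list, 15 fell, with a median log2 fold change of -0.19. Of the 54 genes, 42 fell and 0 rose (edgeR quasi-likelihood test, Benjamini-Hochberg adjusted p under 0.05 over all 21150 genes), where 2.25% of all tested genes fell and 1.34% rose. At an unadjusted p under 0.05, 50 were lower and 0 higher, and DESeq2 and limma-voom called 0 higher. The 12 genes that did not pass also had negative fold changes, so that all 54 pointed down, against 49.6% of all tested genes. The median log2 fold change, knockout minus wildtype, was -0.44 over the 54 genes and 0.00 over all tested genes. In knockout the genes stood at a median of 73.8% of their wildtype level, from 53.8% for Chaf1b to 94.0% for Orc2, and 18 genes were lower by at least 1.5-fold. Together they took 0.188 ± 0.0086% of all counts in knockout (SD, n = 5) and 0.253 ± 0.0033% in wildtype (SD, n = 4). In 45 of the 54 genes the highest knockout pool lay below the lowest wildtype pool, as it did in 4.37% of all tested genes. Without knockout pools 1 and 2, 34 of the 54 genes fell and 0 rose, where 1.65% of all genes fell; 33 of these were among the 42, and the median was -0.38.

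**Figure D1:**
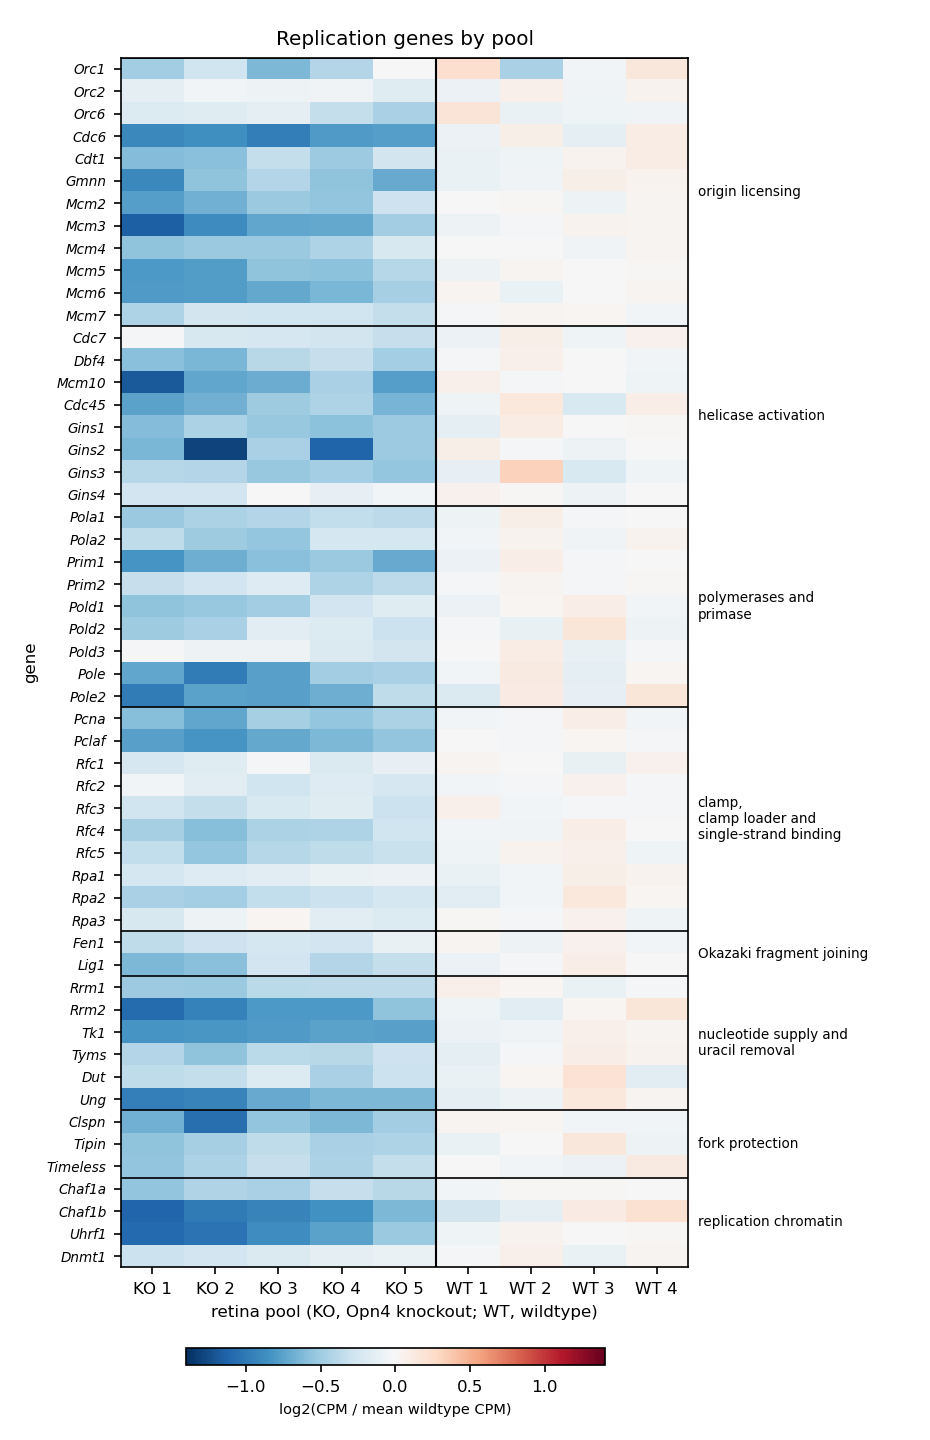
Level of each replication gene (vertical axis, grouped by role) in each retina pool (horizontal axis), as log2 of its CPM over the mean wildtype CPM; blue is below and red above that mean. The 5 knockout columns are blue in nearly every gene, deeply so in Mcm3, Rrm2, Chaf1b and Uhrf1, while Orc2, Pold3 and Rpa3 differ little between the genotypes.

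**Figure D2:**
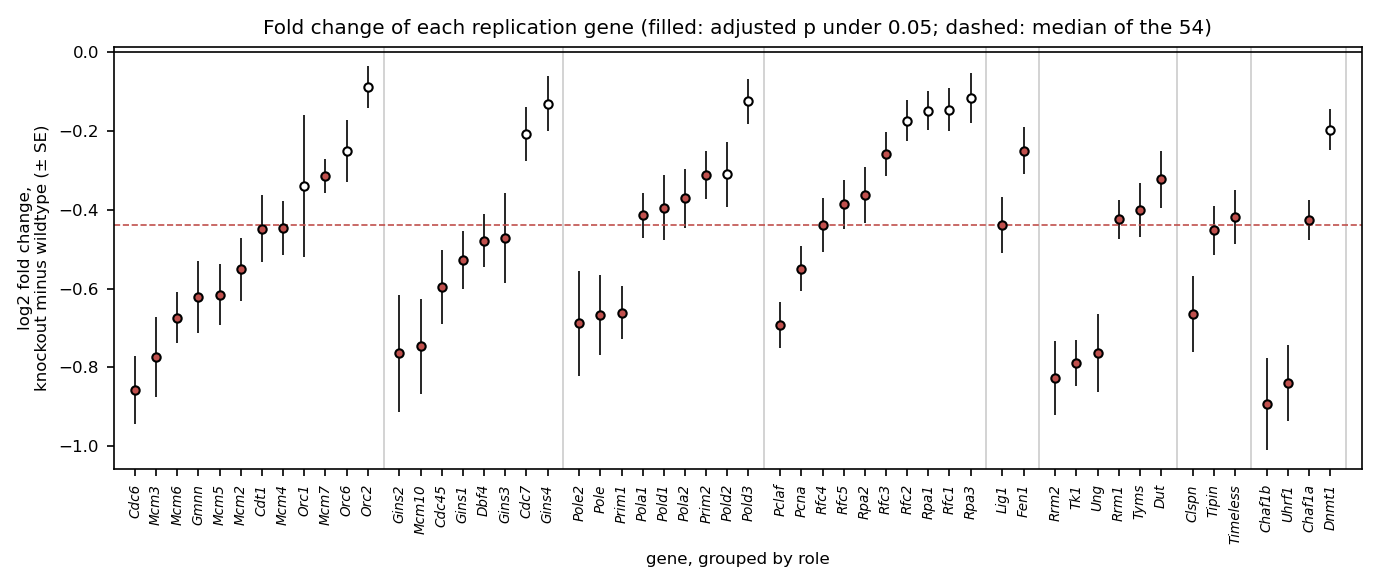
Log2 fold change (knockout minus wildtype, vertical axis) of each of the 54 genes, grouped by role from licensing on the left to chromatin on the right; points are the fitted values, whiskers their standard errors (SE). All 54 points lie below 0, the 42 filled points passed the test, and the dashed line marks the median of -0.44.

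The promoters of several members carry the letters that E2F proteins are known to bind. A link between these letters and the fold changes was not tested. RefSeq promoters (GRCm38.p6, 250 bases before to 50 after a start) were matched by symbol for 45 of the 54 genes, with 55 promoters; those of Gins1, Gins2, Gins4, Gmnn, Mcm4, Pole, Prim2, Rfc2 and Tipin were not matched. Below are 100-base stretches before the start of 4 members, read 5′ to 3′ on the gene's strand, with the E2F letters of either strand in capitals, followed by stretches of the same length from Tk2 and Uhrf2, relatives of the members Tk1 and Uhrf1, which hold none. The matched promoter of Tk1 itself holds none either. Mcm5 lies at chr8:75109312-75109411 on the plus strand, Mcm6 at chr1:128359731-128359830 on the minus strand, Pola1 at chrX:93632240-93632339 on the minus strand and Uhrf1 at chr17:56304082-56304181 on the plus strand. Tk2 lies at chr8:104248559-104248658 on the minus strand and Uhrf2 at chr19:30030413-30030512 on the plus strand. The stretch of Uhrf1 precedes its second listed start and falls in an intron of Uhrf1 in GENCODE, and the other 5 overlap no annotated gene. The promoter at the first listed start of Uhrf1 (not printed) holds no E2F letters, as in Uhrf2.
Mcm5: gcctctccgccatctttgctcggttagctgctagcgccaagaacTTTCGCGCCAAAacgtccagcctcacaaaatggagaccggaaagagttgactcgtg
Mcm6: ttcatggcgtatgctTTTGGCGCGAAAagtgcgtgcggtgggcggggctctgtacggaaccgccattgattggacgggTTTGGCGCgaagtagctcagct
Pola1: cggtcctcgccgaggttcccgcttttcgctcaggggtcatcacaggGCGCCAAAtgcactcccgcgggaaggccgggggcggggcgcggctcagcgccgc
Uhrf1: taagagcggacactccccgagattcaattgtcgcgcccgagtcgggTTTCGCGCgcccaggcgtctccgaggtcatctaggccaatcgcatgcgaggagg
Tk2: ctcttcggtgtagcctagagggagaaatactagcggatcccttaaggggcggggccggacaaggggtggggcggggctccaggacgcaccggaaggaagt
Uhrf2: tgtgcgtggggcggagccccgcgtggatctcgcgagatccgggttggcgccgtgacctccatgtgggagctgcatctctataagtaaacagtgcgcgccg

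The search used TTTCCCGC, TTTGGCGC, TTTCGCGC and TTTGCCGC on both strands. Such matches can overlap, as they do in Mcm5, where 1 run of capitals holds 2 matches, and in Mcm6, whose first run holds 2 and whose second holds 1. Such letters were in 32.7% of the 55 member promoters, in 3.4% of the 16785 promoters of tested genes and in 2.3% of all 32851 promoters. In the 21 promoters of relatives with a role outside S phase replication the share was 9.5%. The printed stretches are examples and do not stand for these shares. GC content was 59.1% in member promoters and 59.7% in those of tested genes. CCAAT was in 56.4% of member promoters and in 37.2% of those of tested genes. TTTGAA, the core of the CHR element known from genes of mitosis, was in 16.4% of member promoters and in 12.4% of those of tested genes. The 17 matched promoters of a list of 20 genes of mitosis had the other makeup, with E2F letters in 5.9%, CCAAT in 88.2% and TTTGAA in 70.6%. E2F letters were present in 15 of the 35 matched members that fell and in 3 of the 10 that did not pass the test. A match of letters is a description of the window, not of a bound site.

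Origin licensing was lower through most of its steps, with 9 of 12 genes down and a median of -0.50. Of these, 8 remained when knockout pools 1 and 2 were left out, and Cdt1 no longer passed. Cdc6 (chr11:98907801-98923940, GENCODE M21 on GRCm38, as for all gene positions here), which helps to load MCM2-7, changed most. Its level was 5.89, 6.07, 5.63, 6.33 and 6.45 CPM in knockout pools 1 to 5 and 10.4, 11.6, 10.1 and 11.9 CPM in wildtype pools 1 to 4. Every knockout pool was thus well below every wildtype pool, and the log2 fold change was -0.86 (SE 0.09, adjusted p = 0.000195). All 6 subunits of the MCM2-7 ring fell, from -0.77 for Mcm3 and -0.67 for Mcm6 (adjusted p = 0.000144) through -0.62 for Mcm5, -0.55 for Mcm2 and -0.45 for Mcm4 to -0.31 for Mcm7. Mcm6 (chr1:128331590-128359664), whose promoter letters are shown above, was at 55.2, 55.5, 58.4, 61.3 and 69.4 CPM in knockout and 98.5, 89.3, 96.3 and 98.3 CPM in wildtype, with no overlap. Mcm7 (chr5:138164583-138172422) had the highest counts of the licensing genes, at 104, 117, 116, 116 and 112 CPM in knockout and 138, 144, 144 and 137 CPM in wildtype. Its groups were separate too, with a narrower gap (SE 0.04, adjusted p = 0.00119). Cdt1, which brings the MCM ring to the origin, fell by 0.45 on the log2 scale, and Gmnn (geminin, the inhibitor of Cdt1) fell by 0.62.

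The subunits Orc1, Orc2 and Orc6 of the origin recognition complex did not pass the test, and neither did Orc3 (log2 fold change -0.07), Orc4 (0.12) and Orc5 (-0.06), which stand on the list of further replication genes. Orc2 was at 39.2 ± 1.47 CPM in knockout pools and 41.7 ± 2.24 CPM in wildtype pools (adjusted p = 0.442), with overlapping groups. It overlaps Nif3l1 on the other strand over 19046 bases, so that some reads counted for Orc2 may belong there. Orc6 was at 26.1, 26.6, 27.1, 23.8 and 21.8 CPM in knockout and 33.8, 28.1, 28.7 and 28.9 CPM in wildtype (log2 fold change -0.25, SE 0.08, adjusted p = 0.112). Its pools were separate, with wildtype pool 1 above the rest, and it passed with DESeq2 (adjusted p = 0.0273). Orc2 passed in transcript abundance and Orc6 in the authors' deposited table, as given below. Orc1 was low, at 1.91 ± 0.33 and 2.42 ± 0.48 CPM, and overlaps the antisense transcript Gm12743 over 22409 bases, so its reads cannot be assigned to a strand with certainty; no label or header states the strand setting of the counting.

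Of the 8 genes that turn the loaded ring into an active helicase, 6 fell, with a median of -0.50, and 5 fell without knockout pools 1 and 2. Gins2, a subunit of the GINS complex that joins MCM2-7 and Cdc45 in the active helicase, had the largest difference and the widest spread, at 17.8, 11.4, 20.3, 12.8 and 19.6 CPM in knockout and 29.4, 27.5, 26.5 and 27.9 CPM in wildtype. The knockout pools lay between 11.4 and 20.3 CPM, all below wildtype (log2 fold change -0.76, SE 0.15, adjusted p = 0.0103). Gins2 (chr8:120578633-120589304) overlaps the more abundant Gse1 on the other strand, and in transcript abundance (TPM, abundance scaled by transcript length) its log2 difference was -0.45 (adjusted p = 0.0265, limma). Dbf4, the activating subunit of the kinase Cdc7, was at 27.6, 26.6, 31.7, 33.2 and 30.0 CPM in knockout and 40.7, 43.5, 41.5 and 40.6 CPM in wildtype. It fell by 0.48 on the log2 scale (SE 0.07, adjusted p = 0.00145), while the kinase subunit Cdc7 had a log2 fold change of -0.21 (SE 0.07, adjusted p = 0.127) with overlapping pools. Mcm10, a factor of helicase activation, fell by 0.75 and Cdc45 fell by 0.60. Gins1 fell by 0.53 and Gins3 fell by 0.47, whereas Gins4 did not pass (log2 fold change -0.13, adjusted p = 0.386). The call of Gins3 is fragile: it was lost when any 1 of 8 of the 9 pools was left out (highest adjusted p = 0.0954), the exception being wildtype pool 3.

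Among the polymerases 7 of 9 genes fell, with a median of -0.39. Leaving out knockout pools 1 and 2 reduced this to 4 of 9 (median -0.34), and Pola2, Pold1 and Pole2 lost their calls. Pole2, the second subunit of the leading-strand polymerase epsilon, was at 3.45, 4.02, 4.01, 4.24 and 5.31 CPM in knockout and 5.92, 7.37, 6.24 and 7.61 CPM in wildtype, with no overlap (log2 fold change -0.69, SE 0.13, adjusted p = 0.0104). Its catalytic partner Pole fell by 0.67. In the polymerase alpha-primase complex, which starts each new strand, the primase subunit Prim1 fell by 0.66 (adjusted p = 0.000198), the catalytic subunit Pola1 fell by 0.41, Pola2 fell by 0.37 and Prim2 fell by 0.31. The lagging-strand polymerase delta differed least. Pold1, its catalytic subunit, fell by 0.39 (adjusted p = 0.0171), a call that was lost without wildtype pool 2 or 3 (highest adjusted p = 0.0558). Pold2 had separate pools and a log2 fold change of -0.31 (adjusted p = 0.0609), and it passed under 5 of 19 alternatives, DESeq2 among them (adjusted p = 0.00668). Pold3, the most abundant of the 9 by counts, was at 63.1, 61.4, 61.2, 55.9 and 54.1 CPM in knockout and 64.8, 69.1, 60.1 and 64.0 CPM in wildtype, and these overlapped (log2 fold change -0.13, adjusted p = 0.293).

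The clamp and its accessory factor fell, and the clamp loader and the single-strand binding proteins were mixed, with 6 of 10 genes down and a median of -0.31. Without knockout pools 1 and 2, 5 of 10 were down: Rfc3 and Rpa2 no longer passed, and Rfc2 did. Pcna (chr2:132249162-132253314), the ring that holds polymerases on DNA, had the highest counts of all 54 genes, at 148, 136, 163, 155 and 164 CPM in knockout and 219, 219, 240 and 218 CPM in wildtype. All 5 knockout pools were below all 4 wildtype pools, and the log2 fold change was -0.55 (SE 0.06, adjusted p = 0.000217). Pclaf, which binds PCNA during S phase, was at 32.4, 30.9, 33.3, 35.5 and 37.4 CPM in knockout and 55.0, 54.3, 55.9 and 53.8 CPM in wildtype. It changed most in this role (log2 fold change -0.69, SE 0.06, adjusted p = 5.19e-05). In the loader RFC, Rfc4 fell by 0.44, Rfc5 fell by 0.39 and Rfc3 fell by 0.26, while the large subunit Rfc1 (log2 fold change -0.15, adjusted p = 0.184) and Rfc2 (-0.17, adjusted p = 0.0882) did not pass. The call of Rfc3 was lost without knockout pool 2, wildtype pool 1 or wildtype pool 4 (highest adjusted p = 0.0724). In the trimer RPA, which coats single-stranded DNA and also serves in DNA repair, Rpa2 fell by 0.36 (adjusted p = 0.0112), and neither Rpa1 (-0.15, adjusted p = 0.129) nor Rpa3 (-0.12, adjusted p = 0.392) passed.

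Both genes that join Okazaki fragments, the short pieces of the lagging strand, fell, and 1 of the 2, Lig1, did so without knockout pools 1 and 2. Lig1, the ligase that seals them, was at 47.3, 48.5, 60.3, 54.9 and 57.9 CPM in knockout and 68.8, 71.8, 77.7 and 73.0 CPM in wildtype. Its pools did not overlap, and knockout pools 1 and 2 were the lowest (log2 fold change -0.44, SE 0.07, adjusted p = 0.00362). Fen1, the flap nuclease that trims the fragments, fell by 0.25 (SE 0.06, adjusted p = 0.0341). That call was lost when any 1 of 7 pools was left out, namely knockout pools 1 to 4 and wildtype pools 1, 3 and 4 (highest adjusted p = 0.101). Fen1 also shares sequence with the antisense transcript Gm10143, which held far fewer counts.

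Nucleotide supply had all 6 of its genes down, with a median of -0.59, and 5 without knockout pools 1 and 2, where Dut lost its call. Rrm2, the S phase subunit of ribonucleotide reductase, was at 25.4, 27.9, 30.6, 30.7 and 36.3 CPM in knockout and 51.3, 48.0, 54.6 and 60.2 CPM in wildtype. Every knockout pool was below every wildtype pool, and the log2 fold change was -0.83 (SE 0.09, adjusted p = 0.000313). Rrm1, the other subunit of the enzyme, was at 115.6, 115.0, 127.1, 127.8 and 127.5 CPM in knockout and 173, 168, 154 and 163 CPM in wildtype. It fell by 0.42 on the log2 scale (SE 0.05, adjusted p = 0.000392). Thymidine kinase Tk1 (chr11:117815526-117826092), which salvages thymidine, had the smallest p of the 54 genes, at 14.3, 14.4, 14.5, 14.98 and 14.9 CPM in knockout and 23.9, 24.5, 26.6 and 26.0 CPM in wildtype (log2 fold change -0.79, SE 0.06, adjusted p = 1.78e-05). Tyms, the source of new thymidylate, fell by 0.40, Dut, which clears dUTP, fell by 0.32, and Ung, the glycosylase that removes uracil from DNA, fell by 0.76. The call of Dut was lost when any 1 of 5 pools was left out, namely knockout pools 1, 2 and 4 and wildtype pools 2 and 3.

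The 3 fork protection genes fell, also without knockout pools 1 and 2. Claspin (Clspn), which links the fork to the checkpoint kinase, was at 14.4, 11.01, 15.6, 14.8 and 16.3 CPM in knockout and 23.5, 23.4, 22.3 and 22.3 CPM in wildtype (log2 fold change -0.66, SE 0.10, adjusted p = 0.00177). Tipin was at 32.5, 34.8, 37.4, 35.0 and 35.7 CPM in knockout and 44.98, 47.9, 53.7 and 45.6 CPM in wildtype (log2 fold change -0.45, SE 0.06, adjusted p = 0.0012). Neither gene's pools overlapped, and Timeless, the partner of Tipin in the fork protection complex, fell by 0.42.

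Replication chromatin held the largest change of all 54 genes, and 3 of its 4 genes fell, with and without knockout pools 1 and 2. Chaf1b (chr16:93883901-93906115), a subunit of CAF-1, the histone chaperone that packs new DNA, was at 6.98, 7.57, 7.87, 8.40 and 9.75 CPM in knockout and 12.7, 13.8, 16.3 and 17.5 CPM in wildtype. These groups were separate, and the log2 fold change was -0.89 (SE 0.12, adjusted p = 0.000814). Its partner Chaf1a fell by 0.43. Chaf1a overlaps the more abundant Ubxn6 on the other strand over 5245 bases, and 33.0% of a Chaf1a transcript matches Ubxn6. Some reads counted for Chaf1a may thus belong to Ubxn6. Uhrf1 (chr17:56303321-56323486), which recruits the maintenance methyltransferase to newly copied DNA, was at 25.7, 26.7, 29.9, 32.4 and 38.1 CPM in knockout and 52.3, 56.5, 54.9 and 55.2 CPM in wildtype. It too had separate pools, with knockout pool 5 nearest to wildtype (log2 fold change -0.84, SE 0.10, adjusted p = 0.000325). The methyltransferase Dnmt1 was close to the threshold. It was at 142, 144, 152, 159 and 164 CPM in knockout and 172, 183, 163 and 179 CPM in wildtype, so that knockout pool 5 and wildtype pool 3 met at the same level (log2 fold change -0.20, SE 0.05, adjusted p = 0.0577). It passed under 8 of 19 alternatives, among them DESeq2 (adjusted p = 0.00903) and library totals in edgeR (adjusted p = 0.0401).

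The authors also deposited transcript abundances and their own comparison. Summed per gene and tested with limma on log2(TPM + 0.5), a scale that understates differences of low genes, 30 of the 54 genes fell and 0 rose, where 1.54% of all genes tested this way fell. Of the 30, 29 were among the 42 called from counts, and the other was Orc2 (log2 difference -0.25, adjusted p = 0.0424). The count of 30 became 19 without knockout pool 2, without wildtype pool 2 or without wildtype pool 4. The difference was negative in 53 of 54 genes with a median of -0.45, and the exception, Orc1, did not pass (0.07, adjusted p = 0.93). At a q under 0.05 in the authors' deposited table, 21 of the 54 were lower in knockout and 0 were higher, against 0.815% of its genes. Of these, 19 were among the 42, and 16 genes passed in all 3 comparisons. The 2 genes called in the authors' deposited table but not from counts were Orc6 (q = 0.0443) and Rfc2 (q = 0.0155).

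Per transcript length, the members differed widely in level within complexes whose proteins work in equal numbers. In wildtype Mcm7 was at 155 ± 7.88 TPM (SD, n = 4), and the other 5 subunits of the same ring ranged from 20.8 ± 0.65 TPM for Mcm4 to 56.9 ± 3.04 TPM for Mcm6. Mcm7 also overlaps 3 microRNA genes and has a close pseudogene copy, Gm5487. Tipin was at 128 ± 9.83 TPM and its partner Timeless at 19.4 ± 2.48 TPM. The lowest of the GINS subunits was Gins3, at 7.24 ± 1.23 TPM, and the highest was Gins4, at 37.8 ± 0.88 TPM. Pcna had the highest level of all members, at 300.2 ± 22.8 TPM in wildtype and 204 ± 18.7 TPM in knockout.

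Ratios between subunits of 1 complex were compared pool by pool. For 54 pairs of members within a complex and 7 pairs of a member with a relative, the log2 ratio of their CPM was taken in every pool; the pairs were chosen after fold changes had been seen and share subunits, so they are described without a test. In 22 of these 61 pairs the knockout ratios lay apart from the wildtype ratios in counts, and in 18 they did so in TPM, with 15 pairs apart in both and in the same direction. The share of such pairs among other genes is not given here, so these counts have no background to be read against. The log2 ratio of Mcm6 to Mcm7 was -0.92, -1.08, -0.99, -0.92 and -0.69 in knockout and -0.49, -0.69, -0.58 and -0.48 in wildtype, so Mcm6 was low relative to Mcm7 in each knockout pool, with knockout pool 5 next to wildtype pool 2. The ratio of Rrm1 to Rrm2 was 2.19, 2.04, 2.06, 2.06 and 1.81 in knockout and 1.76, 1.81, 1.495 and 1.44 in wildtype. The ratio of Chaf1a to Chaf1b was 2.46, 2.48, 2.38, 2.42 and 2.15 in knockout and 2.12, 2.05, 1.80 and 1.68 in wildtype. In the last 2 pairs the groups were apart by a narrow margin in counts, and Chaf1a overlaps Ubxn6 as given above. In TPM, knockout pool 5 and wildtype pool 2 had nearly the same ratio of Mcm6 to Mcm7, and likewise of Rrm1 to Rrm2.

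Most relatives of the members that serve outside S phase did not pass the test, as was so for most tested genes. Of 22 such genes, 1 fell and 1 rose, with a median log2 fold change of -0.02. Over all tested genes 2.25% fell and 1.34% rose, and the counts for the relatives are near that background. Without knockout pools 1 and 2, 1 of the 22 fell and 0 rose, so that Dnmt3a lost its call. The 1 that fell, Hells (-0.58, adjusted p = 0.00123), is a chromatin remodeller needed for DNA methylation, and its transcript is known to be high in dividing cells; the 1 that rose, Dnmt3a (0.23, adjusted p = 0.0137), is the methyltransferase that sets new methylation. Tk2, the mitochondrial thymidine kinase, was at 34.6, 34.8, 33.5, 32.0 and 33.3 CPM in knockout and 33.6, 30.8, 35.3 and 32.4 CPM in wildtype, and these overlapped throughout, unlike those of Tk1. The log2 ratio of Tk1 to Tk2 was -1.20 ± 0.08 in knockout and -0.39 ± 0.08 in wildtype (SD, n = 5 and n = 4). Rrm2b, the form of the Rrm2 subunit that works in resting cells, was at 26.0, 25.6, 26.0, 26.4 and 27.0 CPM in knockout and 26.0, 24.2, 21.5 and 21.0 CPM in wildtype (log2 fold change 0.18, adjusted p = 0.211). By counts, which are not scaled by transcript length, the log2 ratio of Rrm2 to Rrm2b was 0.19 ± 0.17 in knockout and 1.21 ± 0.27 in wildtype. In TPM the ratio was 0.81 ± 0.31 in knockout and 1.95 ± 0.14 in wildtype, so that Rrm2 was on average above Rrm2b in both genotypes. Uhrf2 was at 92.5 ± 3.58 CPM in knockout and 91.8 ± 5.61 CPM in wildtype, Lig3 at 74.9 ± 8.97 and 77.9 ± 6.17 CPM, and Lig4 at 16.5 ± 2.28 and 15.1 ± 2.20 CPM, none of which passed the test. Dnmt3b did not pass either (log2 fold change -0.08, adjusted p = 0.798).

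**Figure D3:**
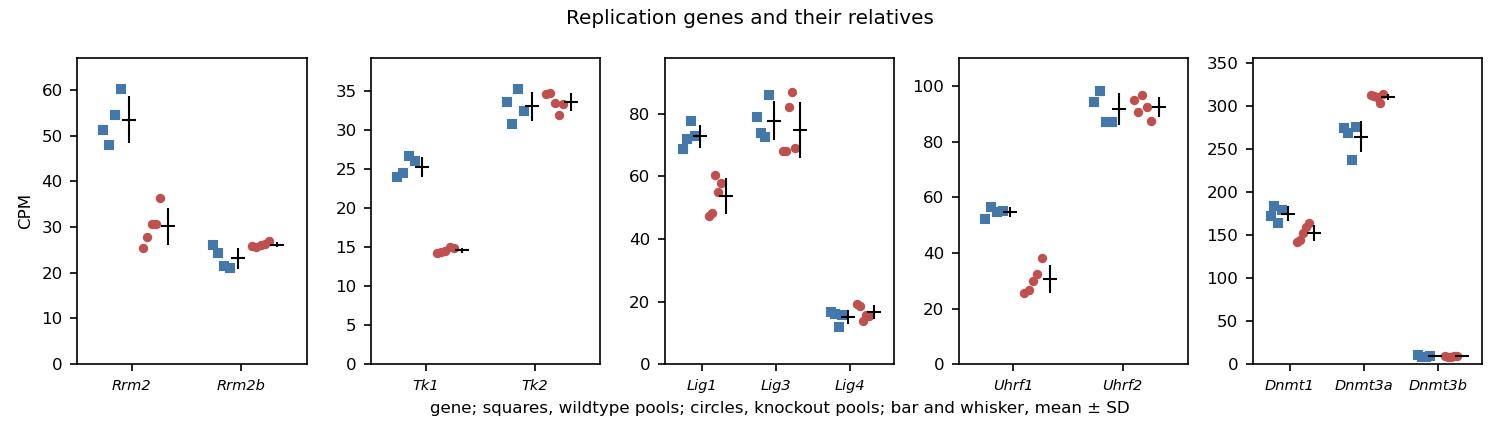
CPM (vertical axis, from 0) of replication genes and of their relatives with roles outside S phase in each pool; squares are wildtype pools, circles knockout pools, and bars with whiskers the mean and SD. The circles of Tk1, Rrm2, Uhrf1 and Lig1 all lie below the squares, whereas those of Tk2, Rrm2b, Uhrf2, Lig3 and Lig4 overlap them and those of Dnmt3a lie above.

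Genes that start beside a member and point away from it were compared with that member. In GENCODE, 10 members have a tested gene that starts within 1000 bases on the opposite strand and points away, giving 11 pairs. Of these members 6 fell, and 0 of the neighbours passed the edgeR test (3.59% of all genes passed in either direction, and 0 of 11 is near that background). At an unadjusted p under 0.05, 2 of the 11 neighbours were lower, and DESeq2 and limma-voom called 0. The median log2 fold change was -0.39 over the members of the 11 pairs and 0.00 over the neighbours. Next to Mcm4, which fell by 0.45, stands Prkdc, which encodes the catalytic subunit of a DNA repair kinase. Prkdc was at 33.8, 33.4, 33.4, 33.3 and 30.1 CPM in knockout and 30.9, 32.9, 23.8 and 31.5 CPM in wildtype, with overlapping pools (log2 fold change 0.14, adjusted p = 0.466). Pole fell by 0.67, and Pxmp2, which starts 120 bases away, was at 1.255 ± 0.265 CPM in knockout and 1.189 ± 0.265 CPM in wildtype. Afmid, next to Tk1, had the most negative fold change of the neighbours of members that fell, with a wide error (-0.54, SE 0.24, adjusted p = 0.278), and its start overlaps Tk1 by 169 bases. Gm45062, beside the uncalled member Rpa3, had a log2 fold change of -5.95 (SE 1.63, edgeR adjusted p = 0.0669). It was at 0.98 ± 2.20 CPM in knockout and 61.4 ± 111 CPM in wildtype, a spread wider than the mean in both. None of the 54 members lies on chromosome 14, which holds Opn4.

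**Figure D4:**
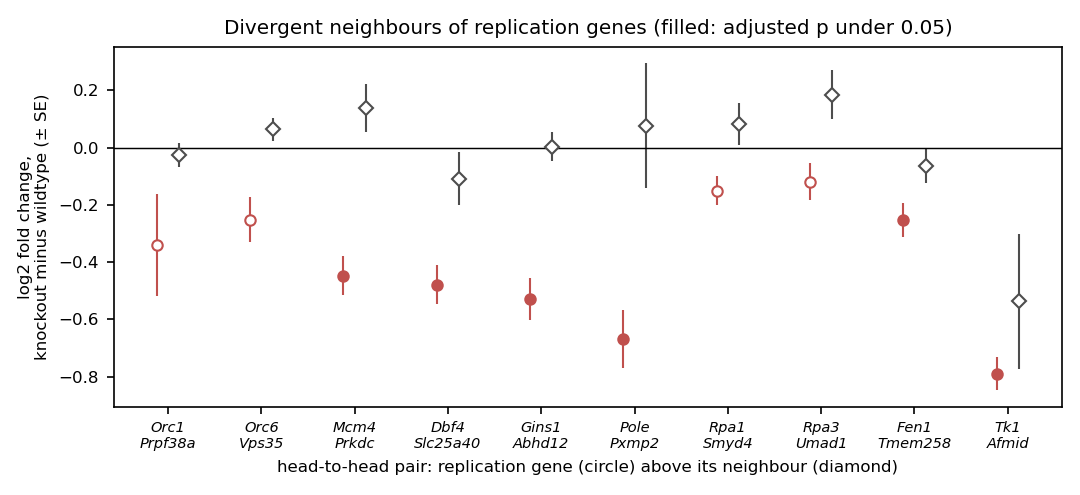
Log2 fold change (knockout minus wildtype, vertical axis) with its SE for 10 members (circles) and the gene that starts next to each on the opposite strand (diamonds); filled symbols passed the test. The 6 filled circles lie below 0, and no diamond is filled. Gm45062, the second neighbour of Rpa3, is not drawn because its log2 fold change of -5.95 (SE 1.63) lies beyond the axis.

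The pools of a genotype were not alike in these genes. The mean log2 level of the 54 genes, relative to all pools, was -0.30, -0.28, -0.17, -0.17 and -0.12 in knockout pools 1 to 5 and 0.23, 0.27, 0.27 and 0.28 in wildtype pools 1 to 4. Wildtype pools lay close together and the knockout pools spread wider, with pools 1 and 2 lowest and pool 5 nearest to wildtype. Among knockout pools, pool 1 was the lowest in 30 of the 54 genes and pool 2 in 13, and pool 5 was the highest in 25. Rod markers had the reverse order over the knockout pools, at 0.48, 0.47, 0.13, 0.13 and -0.12, and lens markers were highest in pools 1 and 2, at 1.17 and 0.72. With genotype means removed, log2 CPM over the 9 pools was correlated with the mean of the 54 members, each scaled by its SD. The members are themselves part of that mean, which raises their values. The correlation was 0.97 for Mcm5 and 0.93 for Mcm3, but -0.68 for Rfc2, -0.67 for Orc6, -0.64 for Pold3 and -0.56 for Cdc7. All genes share the same libraries, and no p is given. Outside the lists, the highest such values were 0.976 for Gm5525, 0.974 for Tox3, 0.970 for Dysf and 0.968 for Cdca5, of which Cdca5, a cohesin regulator, fell (log2 fold change -0.71, adjusted p = 0.0039).

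Further genes of the pathway and of the cell cycle were lower as well. Of 32 further replication genes 15 fell and 0 rose, with a median of -0.19, and 12 fell without knockout pools 1 and 2. The largest changes were in Esco2, which acetylates cohesin in S phase (-0.81, adjusted p = 5.19e-05), Dscc1, part of an alternative clamp loader (-0.80, adjusted p = 0.0121), and Dtl, which directs the destruction of Cdt1 (-0.71, adjusted p = 0.000313). Of 13 E2F and pocket protein genes 5 fell and 0 rose with edgeR (2 higher at an unadjusted p under 0.05, 1 with DESeq2), and again 5 fell without those 2 pools. E2f8 was at 13.1 ± 1.81 CPM in knockout pools and 25.2 ± 2.23 CPM in wildtype pools (log2 fold change -0.94, adjusted p = 0.000217), E2f7 had a log2 fold change of -0.84 and E2f1 of -0.53, all 3 past the test. All 20 genes of a mitosis list fell, with a median of -0.60, among them Cdk1 (-0.74), Birc5 (-0.73) and Top2a (-0.72); 18 fell without knockout pools 1 and 2. These lists were drawn up with earlier results of the same libraries known, and their counts are no independent evidence of a direction.

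**Figure D5:**
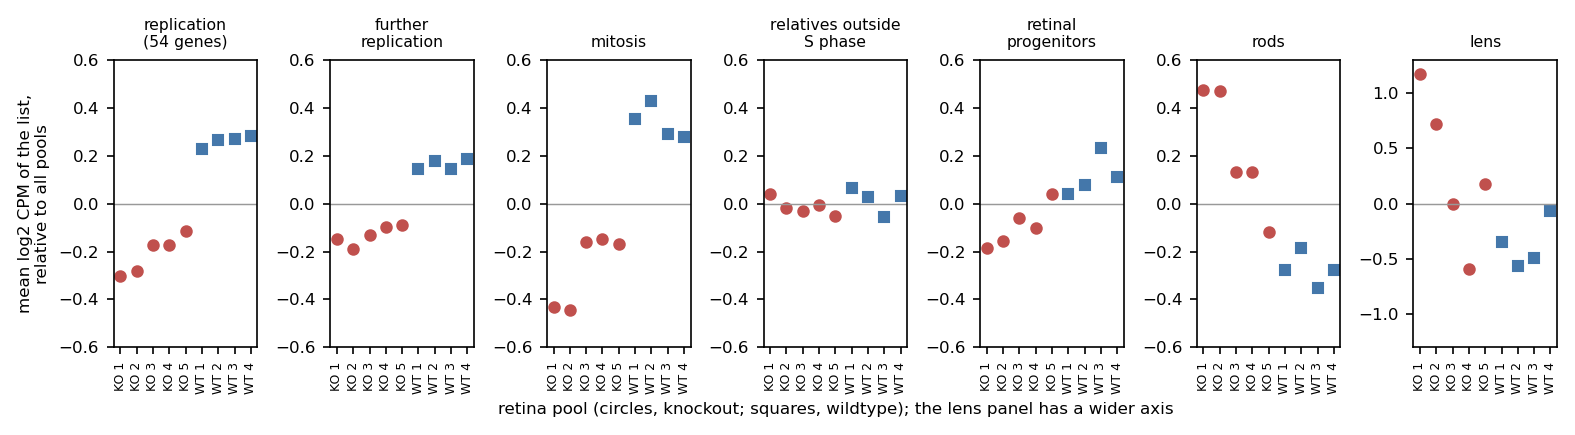
Mean log2 CPM of each gene list in each pool, relative to all 9 pools (vertical axis; wider for lens), with knockout pools as circles and wildtype pools as squares. Replication, further replication and mitosis genes are below 0 in all 5 knockout pools and above 0 in all 4 wildtype pools, relatives outside S phase overlap, and rod and lens genes are highest in knockout pools 1 and 2.

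Markers of some cell types moved beside the replication genes. Over all tested genes 2.25% fell and 1.34% rose, and without knockout pools 1 and 2, 1.65% fell. Of 12 retinal progenitor markers 3 fell, namely Fgf15 (-0.53), Ccnd1 (-0.51), the cyclin that drives retinal progenitors into the cycle, and Pax6 (-0.16). Without knockout pools 1 and 2, 1 of the 12 fell. The summed level of the 12 markers was 2518 to 2948 CPM in knockout and 3204 to 3396 CPM in wildtype, with no marker at 0. Ccnd1 alone, at 919 ± 137 CPM in knockout and 1313 ± 20.1 CPM in wildtype, made up a large part of these sums. With each marker weighted alike, the mean log2 level was -0.19 to 0.04 in knockout and 0.04 to 0.23 in wildtype, so that the groups met. Of 10 rod markers 7 rose, 5 without those pools, with sums of 2866 to 4081 CPM in knockout and 2519 to 2756 CPM in wildtype. Of 6 red blood cell markers 5 fell, 2 without those pools, with sums of 73.8 to 98.8 CPM and 110 to 338 CPM. Of 10 tested lens markers 2 rose, 0 without those pools, with sums of 11.6 to 23.8 CPM and 10.3 to 11.7 CPM, and Cryba2 and Crygs were at 0 in at least 1 pool. Of the markers of cones (7 tested), microglia (8), endothelium (7), astrocytes (4) and pigment epithelium (8), 0 passed with edgeR, DESeq2 or limma-voom. With edgeR 3.59% of all tested genes passed in either direction, so 0 in lists this short is near that background. At an unadjusted p under 0.05, 2 of the cone markers, 2 of the astrocyte markers and 0 of the others passed. The part of these cell types in the level of the replication genes was not tested.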

How the data were processed

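Poly-A RNA of 9 pools of neural retina was sequenced, 5 Opn4KO and 4 Opn4WT, grouped by the sample titles. Pools of a genotype came from separate animals, per the series' design text. The members and all gene lists were chosen with earlier results of these data known.

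The authors deposited whole-number read counts per gene symbol; the program, strand setting and treatment of reads that match several places are not given in the sources used here. They also deposited TPM per transcript, a length-scaled signal from kallisto 0.46.1 on GRCm38 after Trimmomatic 0.39, per the submitters' processing notes. These TPM were rescaled between samples in a way not described, and were summed here per symbol. The authors' deposited comparison, from sleuth 0.30.8, gives p-values and q-values, effects on the natural log scale, and other variance terms per the file headers; effects were turned into log2, knockout minus wildtype, with the sign read from Opn4.

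Counts were tested with edgeR 4.0.16 in R 4.3.3 (filterByExpr, TMM, quasi-likelihood F test, two-sided, Benjamini-Hochberg over all tested genes, threshold 0.05), without a block. Libraries of 65.5 to 86.1 M counts (M, mega) gave every member at least 102 counts in each pool. Levels are CPM with TMM scaling. TPM were tested with limma 3.58.1 (trend) on log2(TPM + 0.5) for genes of at least 1 TPM in at least 4 pools. Both fits were tested on simulated data. Opn4 and library totals were compared by exact permutation over pools. Pool levels and correlations used log2 CPM with a prior count of 2. Positions are from GENCODE M21, near-identical copies from BLAST 2.17.0 at 95% identity or more, and promoters from RefSeq.

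Within each role, values in every pool are given for the called gene with the largest absolute fold change, for the gene of highest mean CPM, and for uncalled genes where a result turns on them; Tk1, Mcm6 and Uhrf1 were added after their values were seen. From other lists the 3 called genes of largest change per direction are named, and relatives beside their member. Alternatives were other scalings, filters and tests (DESeq2 1.42.0, limma-voom, robust edgeR), leaving out each pool, leaving out knockout pools 1 and 2 together, and a replicate block. The ratios of subunits and the counts per list without knockout pools 1 and 2 were chosen after seeing the data. The result of 1 retinal progenitor marker is not reported here.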

Additional observations from a re-analysis of the deposited data

Results flagged for a closer look

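Each of the 54 genes was checked in each genotype for 1 pool far from the rest (Dixon's ratio at the 95% level), 108 groups in all, of which about 1 in 20 would be marked by chance; 2 were. Orc6 was at 33.76 CPM in wildtype pool 1 and at 28.07 to 28.87 CPM in the other 3 wildtype pools; without that pool its adjusted p stayed above the threshold. Pcna was at 239.7 CPM in wildtype pool 3 and at 218.4 to 219.4 CPM in the other 3 wildtype pools, and it passed the test without any single pool.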

How the results depend on the processing

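All 54 replication genes kept a negative fold change under each alternative run on the counts, and 0 were called higher. The number that fell was 42 with DESeq2 size factors in edgeR, 43 with upper-quartile scaling or library totals, 40 without a filter, 44 with a mean CPM of at least 1 or robust estimation, 47 with DESeq2, 41 with limma-voom and 38 to 42 when 1 pool was left out. Of the 42, 37 kept their call without any single pool, and 5 (Gins3, Fen1, Dut, Rfc3 and Pold1) lost it without at least 1. The number of all genes called was 760, against 1491 with DESeq2 and 486 without knockout pools 1 and 2, and 524 to 859 when 1 pool was left out; the cause was not tested. In TPM the number of members that fell was 19 to 31 when 1 pool was left out, 21 without a filter and 30 at pseudocounts of 0.1 and 1. With only the 250 bases before the start, E2F letters were in 18.2% of member promoters and 2.8% of those of tested genes. Replicate numbers did not pair the pools, since same-numbered pools correlated at -0.03 to 0.06 in their deviations from the group means; with the number as a replicate block 42 members fell, 40 of them shared, 27 fell in TPM, and the number of all genes called was 888. Among the members, the smallest fold change that passed was that of Fen1 (-0.25), and Dnmt1 at -0.20 passed under 8 of 19 alternatives and Pold2 under 5.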
